A study of Drosophila melanogaster with 2 samples.

Results

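The Arp2/3 genes of Drosophila melanogaster were examined in a ChIP-seq map of CG31365, expressed from a transgene with GFP fused to its C-terminal end. The set held 10 genes of 13945 protein-coding genes: Arp2, Arp3, Arpc1, Arpc2, Arpc3A, Arpc3B, Arpc4 and Arpc5, which encode subunits of the complex, and SCAR and WASp, which encode its activators. They were taken by name, and the set was chosen by an earlier look at these same peak lists, in which the Arp2 peak ranked high. All peak counts and values below are therefore descriptions, and none was tested. A gene was given every peak whose summit lay in its body or within 1000 bp of a transcription start site in the Ensembl annotation.

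Chromatin came from whole embryos collected over 0 to 24 h, males and females together, in 1 group of 2 biological replicates numbered 2 and 3. No second group was analysed here. The labels name CG31365 as the target of both libraries, but 1 free-text field calls them input controls. Each replicate and the pooled reads gave a list of 30000 peaks and background regions, and 2821 of the pooled peaks formed the list kept after the irreproducible discovery rate (IDR) step. The value attached to a peak is the peak caller's own signal value. It was compared only within a list, where rank 1 is the highest. In a whole embryo a peak averages over all tissues and over the full day of development. Coordinates are on dm6. Read depth was unknown.

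The Arp2/3 complex starts new actin filaments as branches on the side of existing ones. Arp2 and Arp3, the actin-related subunits, form the base of the new branch, and the Arpc subunits hold them together and bind the older filament. The complex is inactive until an activator brings it an actin monomer: SCAR, which acts within the WAVE complex downstream of Rac, or WASp, which can bind Cdc42. In fly embryos branched actin is needed for the furrows of the early syncytial blastoderm, and later for the fusion of myoblasts.

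One gene stood far above the others. Arp2 carried the peak of rank 18 in the pooled list, with a signal value of 5319 and ranks of 26 and 17 in replicates 2 and 3. WASp followed at rank 993 and Arp3 at rank 2373. These 3 of 10 genes had an IDR peak, beside 16.8% of all protein-coding genes by the same rule. When start-site windows alone were counted, without gene bodies, the same 3 genes were found, beside 13.9%. In the pooled list 7 of 10 genes had any peak (58.9% of all protein-coding genes), in replicate 2 it was 8 (60.2%) and in replicate 3 it was 7 (62.5%). Summits within 100 bp of each other in both replicates were found at 5 of 10 genes, namely Arp2, Arp3, Arpc4, SCAR and WASp, beside 39.4% of all protein-coding genes. The background shares are given for scale only, because the genes were chosen with these lists known.

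The sequences under the 3 IDR peaks are printed because they hold the sharpest contrast among the Arp2/3 genes. Each runs 5′ to 3′ in the direction of its gene, here the minus strand of dm6, and covers at most 300 bases around the summit with no annotated exon. Capitals mark AAGCAGT or its reverse complement ACTGCTT, the word that an earlier search of these lists found under their highest peaks. The first stretch is chrX:16552992-16553291 at Arp2, with the pooled summit at its base 150. The second is chr3R:28832025-28832272 at WASp, with the summit at base 150. The last is chr3L:8115911-8116178 at Arp3, with the summit at base 118.
Arp2: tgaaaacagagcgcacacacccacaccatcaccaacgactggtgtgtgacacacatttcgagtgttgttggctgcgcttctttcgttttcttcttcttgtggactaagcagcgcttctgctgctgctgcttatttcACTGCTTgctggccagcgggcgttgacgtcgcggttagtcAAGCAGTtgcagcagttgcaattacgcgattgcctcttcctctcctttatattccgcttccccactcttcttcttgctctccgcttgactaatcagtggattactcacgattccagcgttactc
WASp: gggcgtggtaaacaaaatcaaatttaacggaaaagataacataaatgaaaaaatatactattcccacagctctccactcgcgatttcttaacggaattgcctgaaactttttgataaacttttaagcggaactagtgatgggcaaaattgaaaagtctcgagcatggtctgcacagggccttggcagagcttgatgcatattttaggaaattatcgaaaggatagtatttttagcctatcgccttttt
Arp3: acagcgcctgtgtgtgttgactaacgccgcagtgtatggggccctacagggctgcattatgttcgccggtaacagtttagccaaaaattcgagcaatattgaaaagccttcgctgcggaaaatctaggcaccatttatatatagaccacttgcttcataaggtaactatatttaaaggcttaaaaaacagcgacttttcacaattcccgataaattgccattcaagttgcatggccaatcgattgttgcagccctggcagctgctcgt

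Copies of the word lay on both sides of the Arp2 summit, while the stretches at WASp and Arp3 held none. Within 100 bp of the summit, AAGCAGT was present at 13.2% of IDR peaks and at 2.72% of 26661 low-ranked peaks, meaning pooled ones without overlap with any IDR peak. At least 2 copies, as at Arp2, were present at 5.64% of IDR peaks (159 peaks) and 0.128% of low-ranked peaks. The word was found under the highest peaks of these same lists. Its excess at IDR peaks was thus given in advance, and the shares are a description only. The Arp2 copies were centred 30 bp and 10 bp from the pooled summit, on opposite strands and 40 bp apart. In the replicates the nearer copy was centred 3 bp from the summit in replicate 2, whose summit lay within the copy itself, and 14 bp from it in replicate 3, whose summit lay between the 2 copies. Among the 159 IDR peaks with at least 2 copies, the 2 nearest the summit were a median of 21 bp apart, with a range of 8 to 158 bp. Those copies faced away from each other, as at Arp2, in 30 of these peaks (18.9%), faced each other in 18 (11.3%) and shared a strand in 111 (69.8%).

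Arp2 (FBgn0011742) runs on the minus strand at chrX:16548290-16553968. Its peak stood inside the gene, not at the start site. It covered chrX:16552644-16553656, and its summit lay 809 bp downstream of the nearest Arp2 start site, in an intron of 893 bp that follows the exon with the start codon. Its signal value was 3111 in replicate 2 and 2211 in replicate 3, and the summits of the replicates were 11 bp apart. The peak was 1013 bp wide, against a modal width of 384 bp, and 10 of the 2821 IDR peaks were at least that wide, this one included. No other gene had a start site within 1000 bp of the summit or overlapped it. The other Arp2 peaks were weak. The pooled list held 4 more, 3 in coding exons and 1 in the 3′ UTR, with signal values from 28.4 to 40.6 and ranks from 16336 to 28294. Replicate 3 also had an entry 839 bp upstream of the start site, with a signal value of 16.1 and a rank of 26952, in the 3′ UTR of the neighbouring gene Pp2B-14D.

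**Figure D1:**
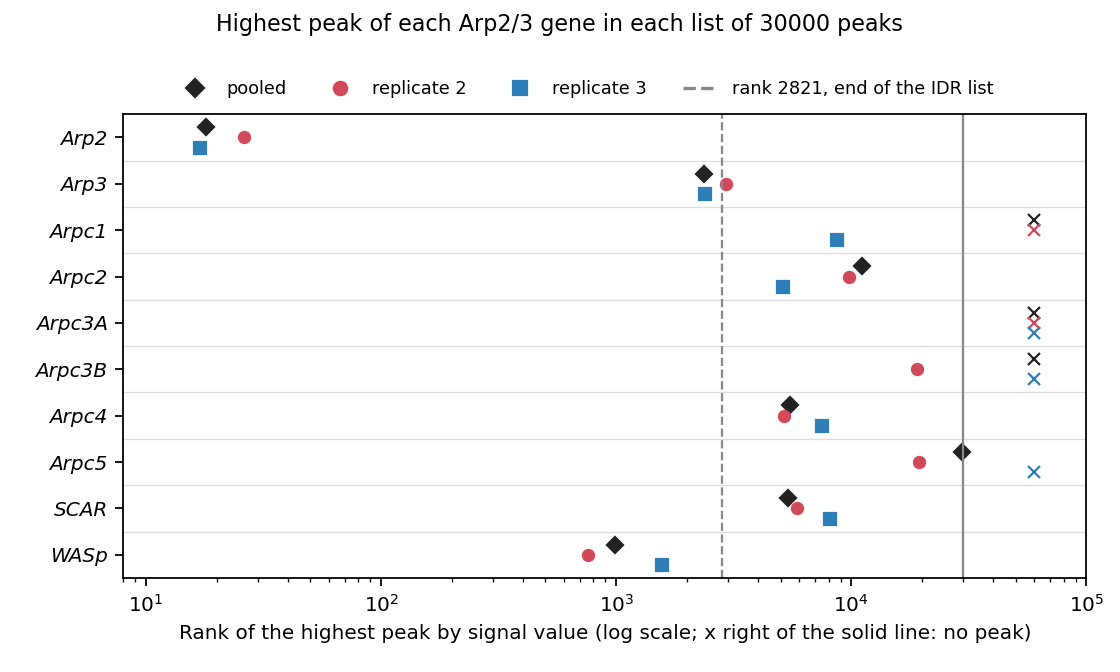
Rank by signal value (log axis) of the highest peak of each of the 10 genes in the pooled list (diamonds), replicate 2 (circles) and replicate 3 (squares), where a cross right of the solid line stands for no peak in that list. The Arp2 points lie between ranks 17 and 26, and the Arpc3A row holds only crosses.

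Arp3, the partner of Arp2 in the branch base, had a much weaker peak in a promoter that it shares. The gene (FBgn0262716) runs on the minus strand at chr3L:8113407-8115902. Its signal value was 137 in the pooled list, 68.1 in replicate 2 and 67.0 in replicate 3, with ranks of 2373, 2919 and 2390. The peak covered chr3L:8115869-8116252 and the replicate summits were 47 bp apart. The summit lay between divergent start sites, 159 bp upstream of Arp3 and 118 bp from the start of msk, which encodes an importin. The peak thus cannot be assigned to Arp3 more than to msk. Arp3 was the member nearest to the end of the IDR list, whose lowest signal value was 124. In replicate 2 it fell outside the 2821 highest peaks.

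The Arpc subunit genes had weak peaks or none, and no IDR peak. Arpc4 (FBgn0284255, plus strand, chr2L:6125132-6125911), which with Arpc2 forms the core that binds the older filament, had 1 peak at its promoter in each list. The signal value was 82.8 in the pooled list, 48.9 in replicate 2 and 34.5 in replicate 3, with ranks of 5506, 5185 and 7476. The pooled summit lay 117 bp upstream of the Arpc4 start site, in intergenic sequence, and the replicate summits were 28 bp apart. The Arpc4 peak was thus placed alike in both replicates although it ranked below the IDR list.

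Arpc2 was covered by low peaks whose summits differed in place between the replicates. It lies on the plus strand at chr2L:20417057-20423027 (FBgn0032859). The pooled list held 4, with signal values from 27.7 to 52.2 and ranks from 11124 to 29443. The highest peak had a signal value of 33.6 in replicate 2, in an intron 1004 bp downstream of the start site, and 43.1 in replicate 3, in a coding exon 576 bp downstream. No Arpc2 summit of one replicate lay within 200 bp of one in the other. The introns of Arpc2 host a cluster of snoRNA genes, and the start site of the divergent gene CG10949 lies 139 bp away, so all of these summits also fell within 1000 bp of another gene's start site.

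The remaining subunit genes each appeared in few lists. Arpc1, the subunit with a propeller fold, had no peak in the pooled list or in replicate 2. Its only entry was in replicate 3, with a signal value of 31.4 and a rank of 8691, in the 5′ UTR of the divergent gene Orc5. Arpc5 had a pooled peak of rank 29513 (signal value 27.6), 80 bp downstream of its start site, and a replicate 2 peak of rank 19479 (signal value 22.2), 66 bp upstream. The pooled summit lay 200 bp and the replicate 2 summit 54 bp from the start site of the divergent gene ND-B17.2. These peaks thus cannot be assigned to Arpc5 alone. Replicate 3 had no peak at Arpc5. The Arpc3 subunit is encoded by 2 genes in the fly. Arpc3B had peaks in replicate 2 alone, with signal values of 22.5 in a coding exon and 21.5 in intergenic sequence 539 bp upstream. Arpc3A had no peak in any of the 4 lists, and the nearest pooled summit to its start site was 4819 bp away. A missing entry means that no region there ranked among the 30000 of a list, not that binding was absent.

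The activator genes differed in the height of their promoter peaks. WASp (FBgn0024273), on the minus strand at chr3R:28824506-28832024, had an IDR peak at chr3R:28831931-28832314, with a signal value of 237 in the pooled list, 153 in replicate 2 and 85.3 in replicate 3. The ranks were 993, 756 and 1564. The summit lay 99 bp upstream of the most upstream of 4 annotated start sites, in the short gap between WASp and the 3′ end of Apc, and no start site of another gene lay within 1000 bp. The replicate summits were 36 bp apart. The pooled list held 4 WASp peaks, replicate 2 held 7 and replicate 3 held 3. The second highest pooled peak lay in an intron, 128 bp upstream of an internal start site. Its signal value was 63.2 in the pooled list (rank 8282), 18.9 in replicate 2 (rank 25181) and 46.5 in replicate 3 (rank 4532), with summits 40 bp apart. In replicate 2 it was the lowest of the 7, and the second highest there was another intronic peak (34.5, rank 9383). The remaining pooled peaks, also in introns, had signal values of 38.6 and 35.6.

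SCAR (FBgn0041781), the other activator gene, on the plus strand at chr2L:10976772-10982395, had no IDR peak. Its highest peak had a signal value of 84.0 in the pooled list, 45.5 in replicate 2 and 32.7 in replicate 3, with ranks of 5375, 5885 and 8151. The pooled summit lay in the 5′ UTR, 166 bp downstream of the start site, and the replicate summits were 92 bp apart. It also lay 539 bp from a start site of the divergent gene ATPsynG, which encodes an ATP synthase subunit. SCAR was thereby the first of the set outside the IDR list, and its pooled value was close to the 82.8 of Arpc4. A summit in an intron 2475 bp downstream also appeared in all 3 lists of 30000, with replicate summits 11 bp apart, but its signal value was only 35.6 in the pooled list, 17.4 in replicate 2 and 18.8 in replicate 3. A further pooled peak 537 bp upstream (signal value 53.6) lay in an intron of ATPsynG, 128 bp from a start site of that gene. Replicate 2 had a peak there (42.1, rank 6705), but replicate 3 held no peak upstream of the SCAR start site.

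**Figure D2:**
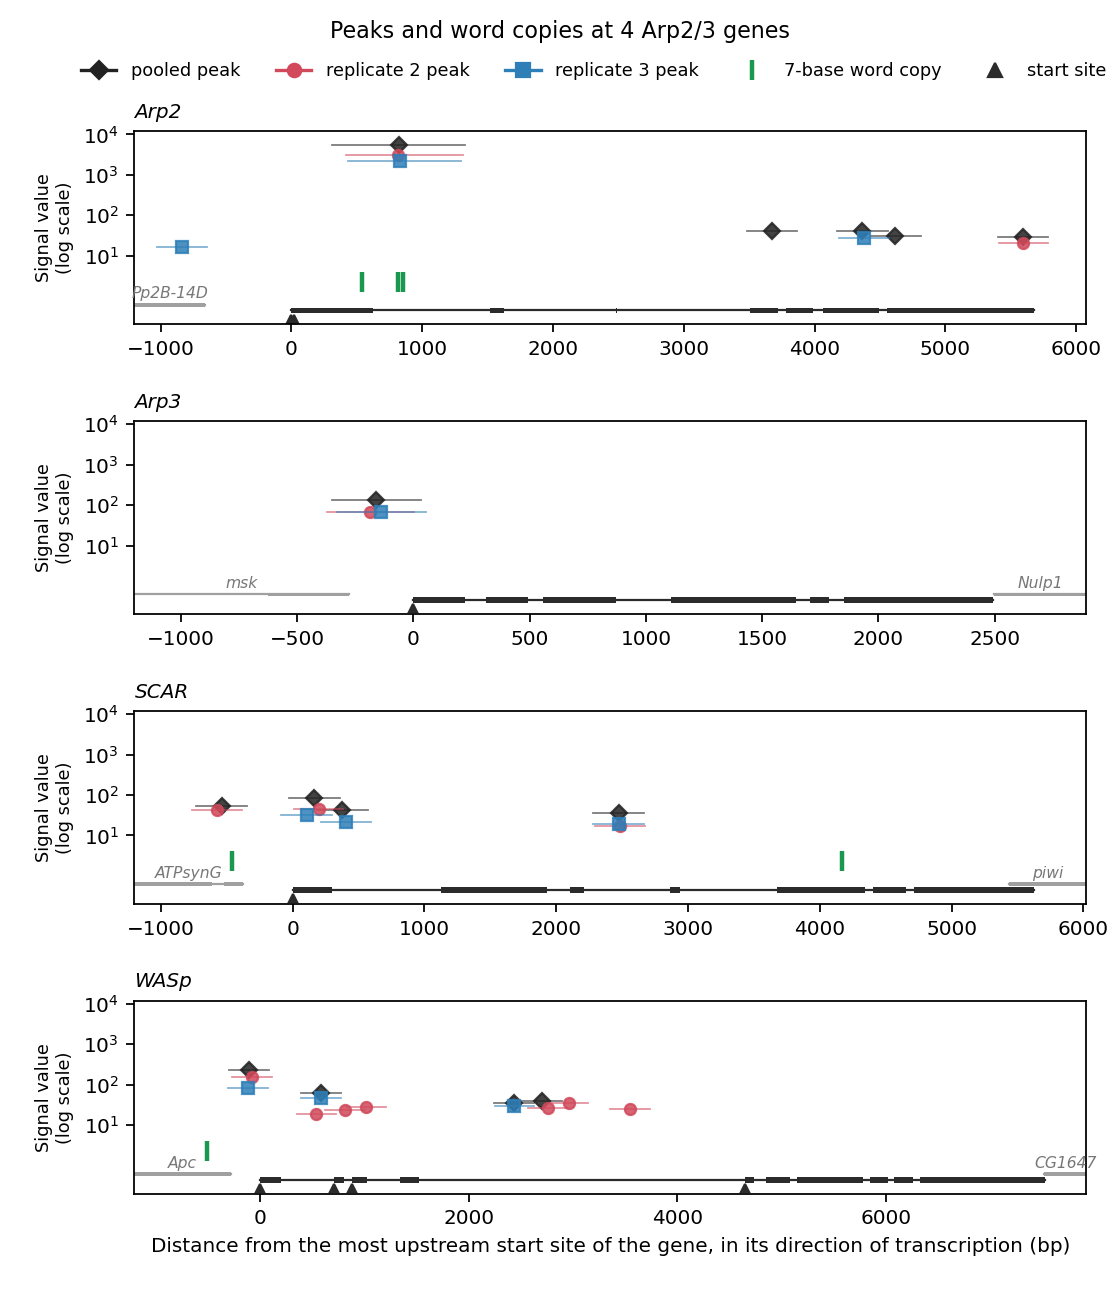
Peak summits (points) and intervals (thin lines) at Arp2, Arp3, SCAR and WASp by signal value (log axis) and distance from the most upstream start site in bp, with exons as thick bars, neighbouring genes in grey, start sites as triangles and copies of the 7-base word as green ticks. The Arp2 peak of 5319, its summit 809 bp downstream of the nearest start site, has 2 copies of the word within 100 bp. Its interval also holds the third Arp2 copy, farther from the summit. The highest peaks of Arp3, SCAR and WASp lie within 200 bp of a start site with no copy within 100 bp.

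Promoters of the set were often shared. A divergent protein-coding gene started within 1000 bp of 6 of the 10 genes (Arp3, Arpc1, Arpc2, Arpc3A, Arpc5 and SCAR), against 36.2% of all protein-coding genes. The distances ranged from 96 bp for Arpc1 and Orc5 to 373 bp for SCAR and ATPsynG. Arp2, Arpc3B, Arpc4 and WASp had no such neighbour.

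Copies of AAGCAGT occurred around most of the genes, but few had a peak. The gene bodies and the 1000 bp to each side held 13 copies at 6 of the 10 genes, against 51.8% of protein-coding genes with at least 1 copy. Arp2, Arpc2 and Arpc3B had 3 each, SCAR 2, Arpc5 and WASp 1 each, and Arp3, Arpc1, Arpc3A and Arpc4 none. Of the 13 copies, 2 lay within 100 bp of an IDR summit, both at Arp2, and 3 lay within 100 bp of a pooled summit. Over the 17376 copies on the chromosome arms, 3.45% lay within 100 bp of an IDR summit and 8.09% within 100 bp of a pooled one. The following copies show the word with and without a peak, 11 bases to each side, 5′ to 3′ on the strand of AAGCAGT, which is in capitals. The first 3 are at Arp2 (chrX:16553109-16553115, minus strand; chrX:16553149-16553155, plus strand; chrX:16553427-16553433, minus strand). The others are at Arpc3B (chrX:17106350-17106356, plus strand) and at SCAR (chr2L:10976310-10976316, plus strand, and chr2L:10980941-10980947, minus strand).
Arp2 intron, 30 bp from the summit: cgcggttagtcAAGCAGTtgcagcagttg
Arp2 intron, 10 bp from the summit: cgctggccagcAAGCAGTgaaataagcag
Arp2 5′ UTR, 288 bp from the summit: gggagtagcagAAGCAGTggttttccaga
Arpc3B upstream, 38 bp from a replicate 2 summit: tacaaaggcgaAAGCAGTgtgcccagaca
SCAR upstream, 78 bp from a pooled summit: tttggttctgcAAGCAGTtggaattatac
SCAR coding exon, 1697 bp from a pooled summit: ttcgcccggccAAGCAGTttggccgccat

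A C preceded the word in 4 of the 13 copies (30.8%), the 2 near the Arp2 summit and both at SCAR. No share over the other copies of the genome is given here, so this count is a description only. Of the SCAR copies, 1 lay by a pooled peak of rank 10699 and 1 by no peak. The third Arp2 copy, in the 5′ UTR, lay inside the interval of the peak but 281 and 292 bp from the summits of replicates 2 and 3. At Arpc3B the upstream copy lay by a peak of rank 20566 in replicate 2 and 1341 bp from any summit in replicate 3. At WASp the single copy was in the 3′ UTR of Apc, 403 bp from the IDR summit.

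Other promoter words were counted at the highest pooled peaks of the 7 genes that had one. The words searched on both strands within 100 bp of the summit were TATCGATA (the DNA replication-related element), GGTCACAC (the core of Motif 1, bound by M1BP), GAGAG (the GAGA factor element) and CACGTG (an E-box), none of which contains another. These words were picked after the peaks had been seen. GAGAG was present once each at Arp2, WASp and Arpc5, against 29.4% of IDR peaks and 26.8% of low-ranked peaks. The other words were in none of the 7 windows, against 3.01% of IDR peaks for TATCGATA, 2.20% for GGTCACAC and 2.76% for CACGTG. Among low-ranked peaks these shares were 1.26%, 1.31% and 2.76%. With shares this low, 7 windows are too few to show a difference. The GC content of the 201 bases around the summit was 50.7% at Arp2, 39.8% at WASp and 41.3% at Arp3, against a median of 39.3% over IDR peaks, with 29.4% and 53.2% as the 5th and 95th percentiles.

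The peaks left out by the rule were mostly weak or far away. Arp3 had the nearest, 1106 bp from its start site inside msk, with a signal value of 57.0 (rank 9747). Arpc3B had 1 at 1824 bp (90.8, rank 4755), near CG5004. The highest of the nearest excluded peaks was near Arpc1, where a peak of 1585 (rank 93) lay 5716 bp from its start site at the genes CenG1A and mRpS23. For the other 7 genes the nearest excluded summit was 2038 to 14170 bp from a start site, with signal values from 28.3 to 112.

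Other genes of actin assembly were read in 8 lists with 58 genes. Of these, 20 (34.5%) had an IDR peak, against 16.8% of all protein-coding genes. The actin genes were longer, with a median of 3726.5 bp against 2166 bp, and a longer body can hold more summits. Whether length accounts for the difference in shares was not tested. With start-site windows alone the count was 14 of 58, against 13.9%. In the WAVE complex, through which SCAR acts, 2 of 4 subunit genes had an IDR peak. That of Hem (signal value 136) lay in intergenic sequence 329 bp upstream and also near IleRS. That of HSPC300 (150.0) lay in its own intron 196 bp downstream and also near CG3163. Of 2821 IDR peaks they ranked 2400 (Hem) and 2029 (HSPC300), beside 2373 for Arp3. Abi had a pooled peak of rank 20399 (35.2), and Cyfip had an entry in replicate 3 alone (17.7). The list of genes for the WASH complex, which activates Arp2/3 on endosomes, and for the related protein Whamy gave 0 of 6, and the highest pooled peak there was at Whamy (86.2, rank 5147).

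Among partners and upstream activators of WASp and SCAR, 5 of 13 genes had an IDR peak, against 16.8% of all protein-coding genes. With start-site windows alone it was 2 of 13, against 13.9%. The median length of these 13 genes was 7273 bp. The highest was at trio, a Rac exchange factor gene, with a signal value of 905 in the pooled list (rank 157), 579 in replicate 2 (rank 142) and 338 in replicate 3 (rank 196). Its summit lay in the 5′ UTR, 191 bp downstream of a start site and also near CG9205, with 2 copies of AAGCAGT within 100 bp. Mtl, a Rac-like GTPase gene, had a peak 249 bp upstream (898, rank 162), also near CG5611, with no copy. Nost, which encodes an F-BAR protein, had an intronic peak 4091 bp downstream (547, rank 278), also within lncRNA:CR43836, with 3 copies. The others were intronic peaks at mbc (279), which encodes a Rac exchange factor of myoblast fusion, and at Ack (156), a Cdc42-associated kinase gene, with no copy. An IDR peak was present at 3 members and 20 of these other actin genes. Of those, only Arp2, trio and Nost had the word within 100 bp of the highest IDR summit. Over all IDR peaks the share with the word was 13.2%.

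Genes that act on the branch or on unbranched filaments gave IDR peaks with signal values from 134 to 451. Their counts stand beside 16.8% of all protein-coding genes, or 13.9% with start-site windows alone. Of 4 branch regulators, Cortactin (207) and pod1, a coronin family gene (140.2), had an IDR peak. The Cortactin peak lay in the 5′ UTR of AnxB9. The 4 branch regulators had a median length of 6469.5 bp, and start-site windows alone kept 2 of 4. Of 7 genes for formins and Spire, the other classes of nucleator, 4 had one: the formin genes Fhos (447), DAAM (154) and dia (136), and spir (198). These 7 genes had a median length of 30215 bp, and with start-site windows alone 2 of 7 remained. The DAAM peak was also near fs(1)N. Of 11 genes for elongation, capping and turnover, 5 had one, among them tsr, the cofilin gene (393), chic, the profilin gene (167), and cpa, a capping protein subunit gene (134). The cpa peak lay in the 5′ UTR of shg. The 11 genes had a median length of 4543 bp, against 2166 bp over all protein-coding genes. Start-site windows alone kept 4 of 11. Of 6 actin genes, the cytoplasmic actin genes Act5C (451) and Act42A (146) had one, that of Act5C also near lncRNA:CR45668. Of 7 actin-related protein genes outside the complex, such as Arp1, Arp5 and Arp10, none had an IDR peak, and the highest pooled peak was at Arp10 (85.0, rank 5270). No gene of the 8 lists had a signal value as high as that of Arp2.

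**Figure D3:**
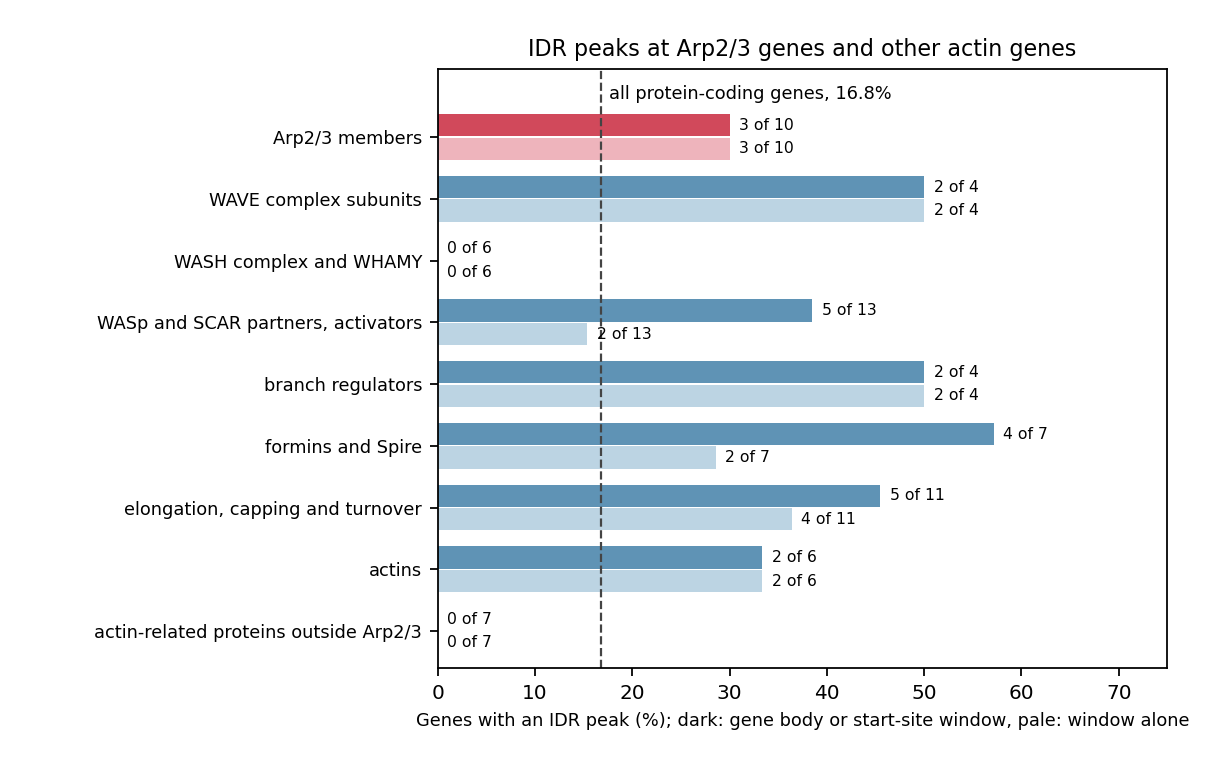
Share of genes with an IDR peak (%) in the Arp2/3 set (red) and 8 lists of other actin genes (blue), counting the gene body or start-site window (dark bars) or the window alone (pale bars), with counts beside the bars and a dashed line at the 16.8% of all protein-coding genes for the dark bars. The Arp2/3 set is at 3 of 10 by either count, and the WASH and other actin-related lists are at 0.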

How the data were processed

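Chromatin of embryos, sonicated to 200 to 800 bp per the labels, gave 4 deposited narrowPeak lists on dm6. Per the deposited file listing, the authors called the replicate and pooled lists of 30000 against a separate control file and derived the 2821 IDR peaks from them. The deposited signal value (column 7) ranked peaks within a list. The deposited −log10 q-value (column 9), tied at the maximum for 3260 pooled peaks, was used in alternatives. The sources used here name no aligner, peak caller or IDR threshold. As low-ranked entries include background, a weak peak need not be a binding site.

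Summits were assigned to Ensembl release 115 genes (BDGP6.54, dm6 coordinates), with sequence from RefSeq's copy of the assembly. Of 58 pathway genes, 56 matched by symbol, 1 by symbol in another case and 1 (Sra-1, now Cyfip) by RefSeq synonym. Genes and lists were chosen with earlier results of these data known. All 10 members are named, and of each pathway list every gene with an IDR peak except 2 that are not reported here. Alternatives covered windows, overlap, stricter lists, ranking and leaving out each replicate. Functions were tested on planted peaks and words. Python 3.11.15 was used with numpy 2.4.6, pandas 2.3.3 and matplotlib 3.10.9.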

Additional observations from a re-analysis of the deposited data

How the results depend on the processing

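The count of Arp2/3 genes with an IDR peak stayed at 2 or 3 of 10 under 9 alternatives. The share of all protein-coding genes ran from 9.34% to 19.5% under them. Arp3 was lost with the 1410 IDR peaks of highest signal value and without replicate 3. With the 2821 highest peaks of 1 replicate in place of the IDR list, the count was 2 to 3, and that of pathway genes 17 to 23. All protein-coding genes then gave 16.9% to 17.2%. Genes with a pooled peak numbered 6 to 8, beside 45.8% to 66.3% of all protein-coding genes. Genes with summits in both replicates numbered 5 throughout, beside 31.3% to 44.4%. The word lay at 1 of the 3 IDR peaks, that of Arp2, in each window tried. The pathway count was 11 of 58 with the 1410 highest IDR peaks, against 20, as fewer peaks were counted, while all protein-coding genes gave 9.34%. Ranked by −log10 q-value, Arp2, WASp and Arp3 were among 3260 pooled peaks tied at the maximum, so column 9 does not order them. The alternative that took the highest pooled peaks by −log10 q-value gave the main counts again, 3 of 10 and 20 of 58. The tied peaks outnumber the 2821 of the IDR list, so that alternative was not a separate check. For Arpc2 the rank was 5127 without replicate 2 and 9768 without replicate 3, against 11124. No paired analysis was possible because the series holds 1 group. Leaving out a replicate for the pooled count was chosen after seeing the data.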
